A study of Mus musculus with 6 samples.

Results

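Cells carrying Krt79, Defb6 and Cst6 transcripts, genes of the suprabasal cells of the upper hair follicle, were followed in mouse dorsal skin over 6 days after hair removal. The cells were a mixture that also held granular and spinous profiles. Krt79 encodes a keratin of the canal that joins the follicle to the skin surface, Defb6 encodes a secreted β-defensin, and Cst6 encodes cystatin M/E, an inhibitor of cysteine proteases. A barcode was counted as such a cell when it had 500 to 7000 detected genes, at most 10% mitochondrial UMIs (unique molecular identifiers, each counting 1 captured transcript), at least 6 UMIs of the 3 genes together that made at least 10 of every 10000 of its UMIs, and fewer than 6 UMIs of the sebocyte genes Cidea, Elovl6, Fa2h and Elovl3. This gave 8175 cells of 55177 barcodes that passed the gene and mitochondrial limits. The 3 genes thus chose the cells, and their own levels are given as a description.

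The skin came from wildtype FVB male mice of postnatal day 55 to 57 whose back had been shaved and waxed, which removes the club hair and sets off a new round of growth. Skin was taken at once (0 h), after 4 h and 16 h, and then on days 2, 4 and 6 (2 d, 4 d, 6 d), digested to single cells and sequenced with the 10x Chromium 3′ assay, and no sorting step is named in the labels. Each of the 6 libraries held cells of 2 mice that were processed separately and then mixed in equal number, so a time point is 1 sample, the mice cannot be told apart and no difference between a pair of time points was tested. In order of sampling, library totals were 73894299, 72634390, 112370376, 99686327, 95678280 and 88632160 UMIs. Intervals in the text are exact 95% intervals that cover counting error only.

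The upper follicle consists of the infundibulum, which opens at the surface, and below it the junctional zone and the duct of the sebaceous gland. A basal layer in these places gives rise to suprabasal cells that line the canal, and these cells make keratins, antimicrobial peptides and proteases of shedding. Cystatin M/E restrains legumain and cathepsins and so limits crosslinking of the cornified envelope, kallikreins such as KLK5 and KLK7 cut the desmosomes that hold corneocytes together, and the transcription factor GATA6 is known for its place in the junctional zone and the sebaceous duct.

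The members at each time point numbered 382, 375, 787, 1531, 2795 and 2305 in the order of sampling. Their median UMI count was 10011, 8556, 10631, 8117, 6508 and 7999 in the same order. The cells at 4 d were therefore the shallowest and those at 16 h the deepest. Of the 8175 members, 10 had a barcode sequence that occurred among the members of more than 1 library, and of 61031 deposited barcodes 862 occurred in more than 1 library.

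The positions of the marker genes are given on mm10. Krt79 lies at chr15:101929332-101940324 on the minus strand, Defb6 at chr8:19225478-19228209 on the plus strand and Cst6 at chr19:5344705-5349574 on the minus strand. Klk7, used as a marker outside the choice, lies at chr7:43811294-43816359 on the plus strand, and Alox12e, a lipoxygenase gene of the skin and the other such marker on a sequenced promoter window, at chr11:70315610-70322628 on the minus strand. All are protein coding.

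The promoters are shown because GATA6 is the transcription factor among the markers and GATA factors are known to bind AGATAA or TGATAA. Both words were searched on both strands of the RefSeq (GRCm38.p6) window from 250 bases before to 50 bases after the start of Krt79, Defb6, Klk7 and Alox12e; capitals mark the match, and sequences run 5′ to 3′ on the strand of the gene. The Krt79 match lies within the stretch shown, chr15:101940277-101940306, and begins at base 31 from the start, downstream of it. The Defb6 match is shown within the 250 bases before the start at chr8:19225228-19225477. The Klk7 match lies within the stretch shown, chr7:43811311-43811340, and begins at base 30 from the start, also downstream.
Krt79: ccagctgggaaaAGATAAaaaggtgtttgg
Defb6: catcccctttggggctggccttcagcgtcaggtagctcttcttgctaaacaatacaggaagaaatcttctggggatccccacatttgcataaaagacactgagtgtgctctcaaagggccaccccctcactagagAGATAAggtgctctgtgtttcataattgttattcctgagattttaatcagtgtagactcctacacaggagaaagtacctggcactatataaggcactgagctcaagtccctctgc
Klk7: ctcagggatttcAGATAAccctatgctcaa
The Alox12e window held neither word. Cst6 and Gata6 had no window in the promoter set used and were not searched. Of 32851 promoter windows of the same length, 18.6% held at least 1 match, so a match is common and describes letters only.

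The share of Krt79/Defb6/Cst6 cells among passing barcodes was lowest in the first hours and highest at the last time points. It was 5.52% (4.99 to 6.08) at 0 h and 4.89% (4.42 to 5.40) at 4 h. It was 9.02% (8.42 to 9.64) at 16 h and 16.1% (15.3 to 16.8) at 2 d. At 4 d it was 22.5% (21.8 to 23.3), and at 6 d it was 23.2% (22.4 to 24.1). The intervals cover counting error within a library, not the spread between mice or digestions, so their overlap is no test between time points. A share is set by all cells that the digestion released, so more cells of 1 kind and fewer of another cannot be told apart.

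**Figure D1:**
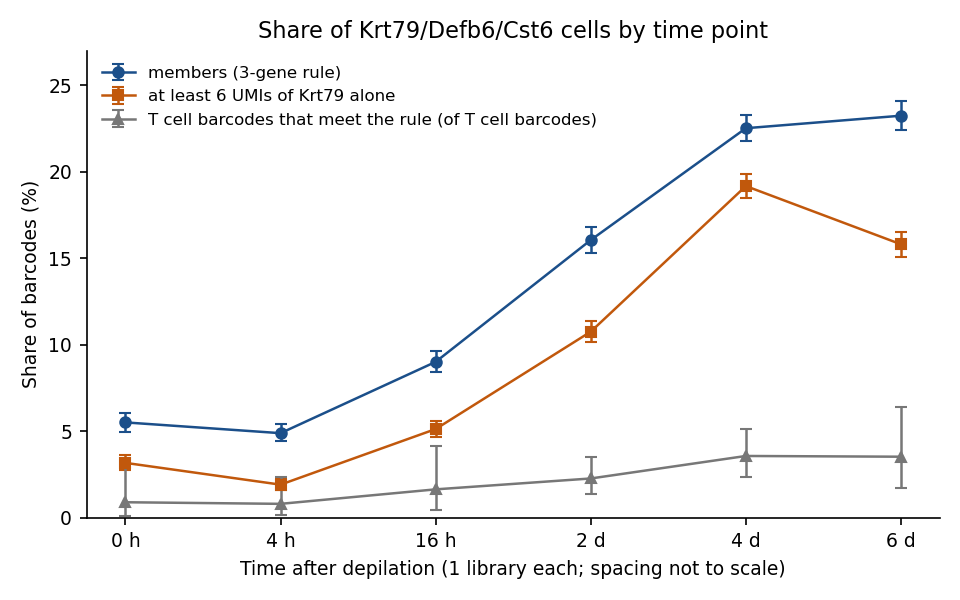
Share (%) of passing barcodes that are Krt79/Defb6/Cst6 cells, under the stated limits and with Krt79 alone, against the time after hair removal. A further series gives the share of T cell barcodes that meet the stated limits. Bars are exact 95% intervals. The share of passing barcodes under the stated limits runs from 5.52% at 0 h to 23.2% at 6 d.

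T cells, which should lack the 3 genes, gave the background for this count. Among T cell barcodes the share that met the same limits was 0.901%, 0.809%, 1.65%, 2.28%, 3.58% and 3.53% from 0 h to 6 d. It was below the share of members at every time point and was itself highest at 4 d and 6 d. The T cells were shallower, with a median of 2046 to 2747 UMIs against 6508 to 10631. Barcodes with the highest Scrublet scores were marked as doublets up to an assumed rate for each library, and the share of members so marked was 4.97%, 5.87%, 8.89%, 14.0%, 17.2% and 12.8%, against 5.85%, 6.37%, 7.63%, 9.27%, 11.1% and 8.61% of all passing barcodes. It was above the overall share from 16 h on, and without the marked barcodes the share of members was 5.57%, 4.92%, 8.89%, 15.2%, 21.0% and 22.2%, with the same high and low time points. The part of free RNA in these counts was not tested.

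The rule measure, UMIs of the 3 genes per 10000, had a median of 53.1, 39.7, 77.1, 104, 138 and 105 in members from 0 h to 6 d. Just inside the limit, members with 6 to 8 such UMIs numbered 24, 24, 21, 88, 136 and 121. Just outside it, barcodes with 3 to 5 numbered 351, 366, 965, 1460, 1560 and 1488, and those with at least 6 UMIs but under 10 per 10000 numbered 107, 177, 643, 593, 324 and 433. At every time point more barcodes thus lay just outside the limits than members just inside them. The sebocyte genes removed 172, 139, 253, 235, 275 and 200 barcodes that met every other limit.

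The members were not alike. A Krt79-rich subset, with the same 2 limits met by Krt79 alone, made up 57.6%, 39.2%, 56.9%, 67.0%, 85.2% and 68.0% of members. Cells with loricrin (Lor) at 50 or more per 10000, a granular layer level, made up 13.4%, 8.27%, 3.18%, 1.11%, 1.40% and 7.16%. Cells with less Lor and with Krt1 and Krt10, the keratins of the spinous layer, at 100 or more per 10000 made up 12.04%, 16.5%, 26.6%, 19.9%, 5.40% and 11.2%. The Krt79-rich subset was thus smallest at 4 h and largest at 4 d, and the Lor-rich cells were most frequent at 0 h. Cst6 gave the most UMIs of the 3 genes in 42.1% of members at 0 h and in 54.8% at 16 h, and all 3 genes had a UMI in 41.9% at 4 h and in 75.7% at 2 d. These gates were set after the values had been seen, and main results are therefore also given for the Krt79-rich subset.

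**Figure D2:**
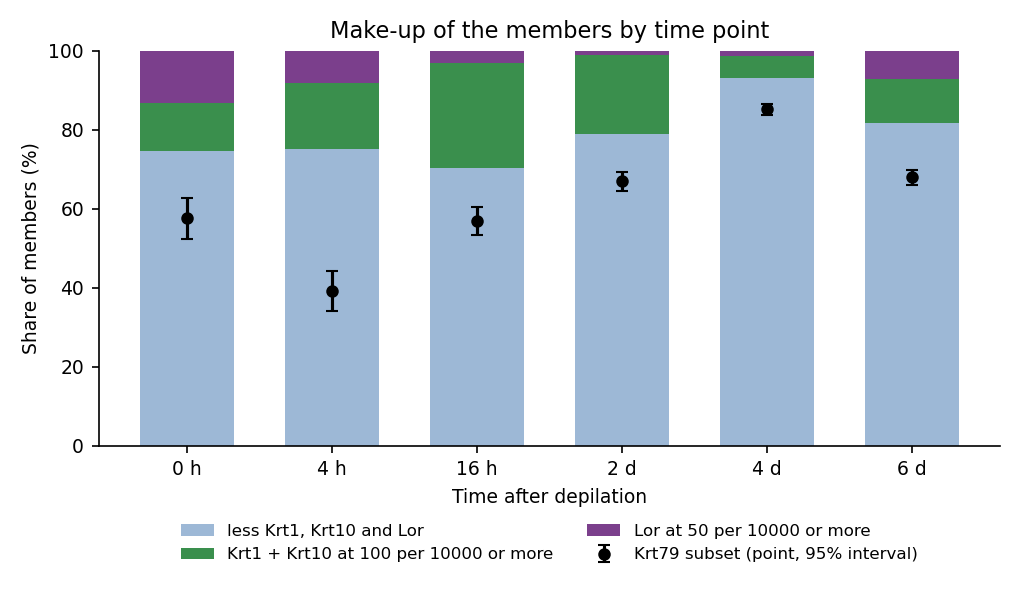
Make-up of the Krt79/Defb6/Cst6 cells at each time point (% of members). Lor-rich cells make up 13.4% at 0 h, 1.11% at 2 d and 7.16% at 6 d, while the Krt79-rich subset ranges from 39.2% to 85.2%.

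The label of upper hair follicle suprabasal cells was checked against Gata6, Klk7 and Alox12e, which the rule did not use. Gata6 stood at 46.8, 12.8, 44.0, 50.2, 67.7 and 47.7 CPM (the UMIs of a gene scaled to a fixed total over the summed members) from 0 h to 6 d. In spinous comparator cells, which had Krt1 and Krt10 at 100 or more per 10000 and fewer than 2 UMIs of the 3 genes, it stood at 0.179 CPM at 0 h and had no UMI at any later time point. The 2 sets did not overlap. The spinous comparator numbered 1606 cells, from 104 at 4 d to 535 at 0 h. Thinned to 2000 UMIs a cell, Gata6 had a UMI in 12.1%, 6.78%, 11.95%, 12.8%, 14.1% and 11.8% of members and in no spinous comparator cell.

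Klk7 encodes a chymotrypsin-like protease of shedding. It stood at 1080, 1586, 863, 628, 1012 and 1577 CPM in members and at 3.75, 2.48, 8.98, 9.24, 57.2 and 14.3 CPM in the spinous comparator. The 22010 basal comparator cells, rich in Krt5 and Krt14 and poor in Krt1 and Krt10, held 5.96, 8.35, 3.99, 4.89, 10.0 and 22.1 CPM. Members were far above both at every time point. After thinning, Klk7 had a UMI in 31.6% of members at 0 h and 63.0% at 6 d, against 1.60% and 4.02% of T cells.

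Alox12e stood at 205, 138, 174, 195, 328 and 232 CPM in members. It stood at 67.4, 32.6, 49.0, 36.3, 31.1 and 36.9 CPM in the spinous comparator and at most at 8.24 CPM in the basal comparator. Its lowest level in members exceeded its highest in both comparators. All 3 markers outside the rule thus stood higher in the members than in both comparators. Both comparators were held to few UMIs of the 3 genes, so genes found together with these are low there by choice. No granular comparator was used, so these levels do not tell upper follicle from granular cells. Within the members, Klk7 was higher outside the Krt79-rich subset than in it at 0 h (1651 against 337 CPM), 4 h (1769 against 1012 CPM), 16 h (948 against 775 CPM) and 6 d (1638 against 1537 CPM), and Alox12e at 0 h (224 against 180 CPM) and 4 h (141 against 129 CPM). Gata6 was higher in the subset at each time point, with 67.7 against 30.8 CPM at 0 h and 76.9 against 26.7 CPM at 4 d. Klk7 and Alox12e were thus not limited to the Krt79-rich cells. The Lor-rich and the Krt1/Krt10-rich members go against the upper follicle label for that portion of the cells, since Lor marks the granular layer. Their place in the skin was not tested, and the cells are therefore called by the genes that chose them.

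Krt17, a keratin of follicle and appendage epithelium, set the Krt79-rich subset further apart. It stood at 5906, 5102, 4351, 4075, 8982 and 7669 CPM in members and at 11218, 6718, 7045, 6376, 10472 and 10769 CPM in the subset. In the spinous comparator it lay between 52.0 CPM at 0 h and 632 CPM at 4 h, and in the basal comparator it reached 2997 CPM at 4 d. Members outside the subset held 2361 CPM at 4 d, below the basal cells. The subset was above all members at every time point.

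**Figure D3:**
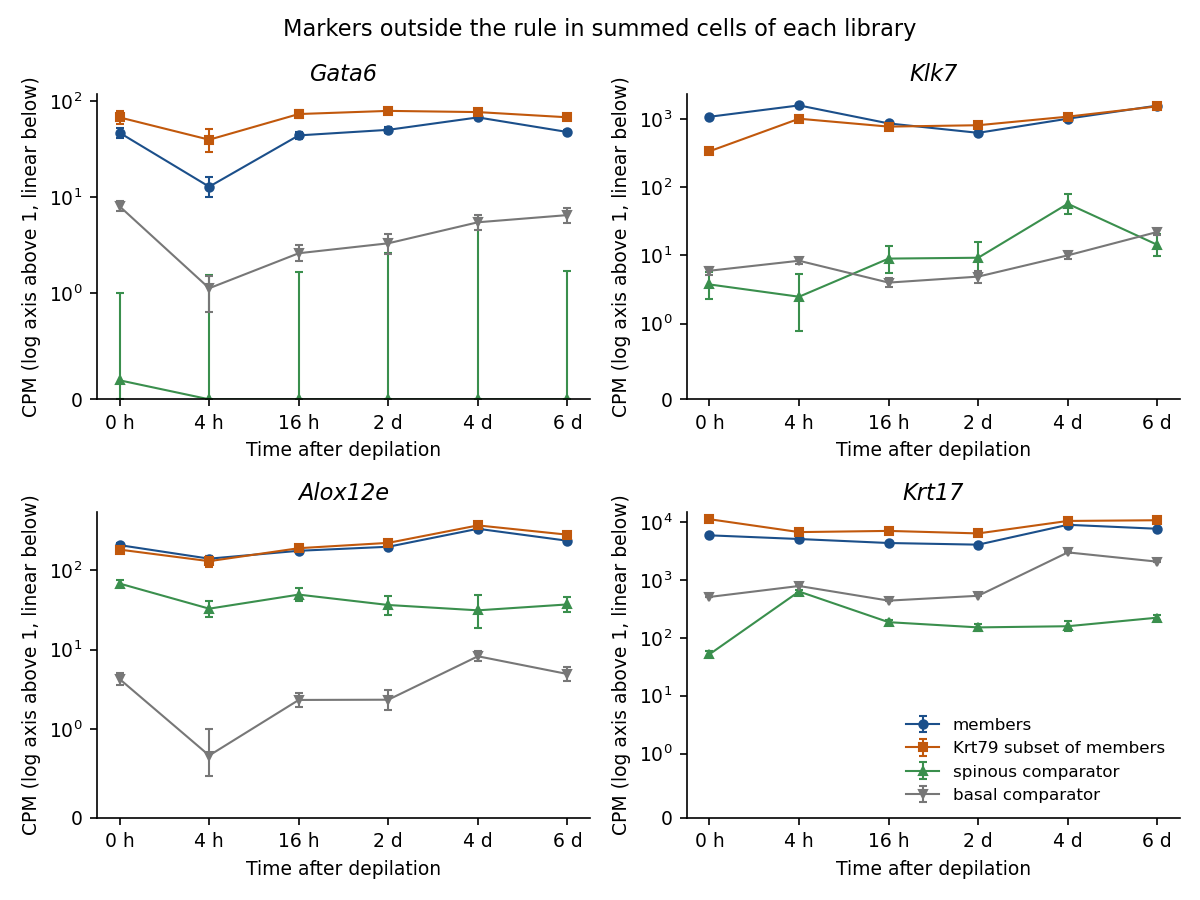
Levels (CPM, log axis) of markers in Krt79/Defb6/Cst6 cells, the Krt79-rich subset and the comparators at each time point. Gata6 lies between 12.8 and 67.7 CPM in members and at or under 0.179 CPM in the spinous comparator.

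Among members, those with more UMIs of the 3 genes had more Krt17 and Gata6. At 4 d, in bins of 10 to 30, 30 to 100, 100 to 500 and over 500 rule UMIs per 10000, Krt17 stood at 3305, 6939, 9057 and 16296 CPM. Gata6 stood at 22.4, 26.4, 73.1 and 146 CPM in the same bins. Krt10 ran the other way, with 5816, 2720, 2126 and 1036 CPM. Sostdc1, a gene of the upper follicle basal list, stood at 451, 525, 437 and 130 CPM and Krt15 at 2681, 2970, 2772 and 1334 CPM, both lowest in the top bin. The order over bins at 4 d was thus steady in Krt17, Gata6 and Krt10, while Lor was highest in the second bin with 3434 CPM and lowest in the last with 157 CPM. The bins share a library, and values of the top bin are not given for 0 h and 4 h, which held 14 and 19 cells there.

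**Figure D4:**
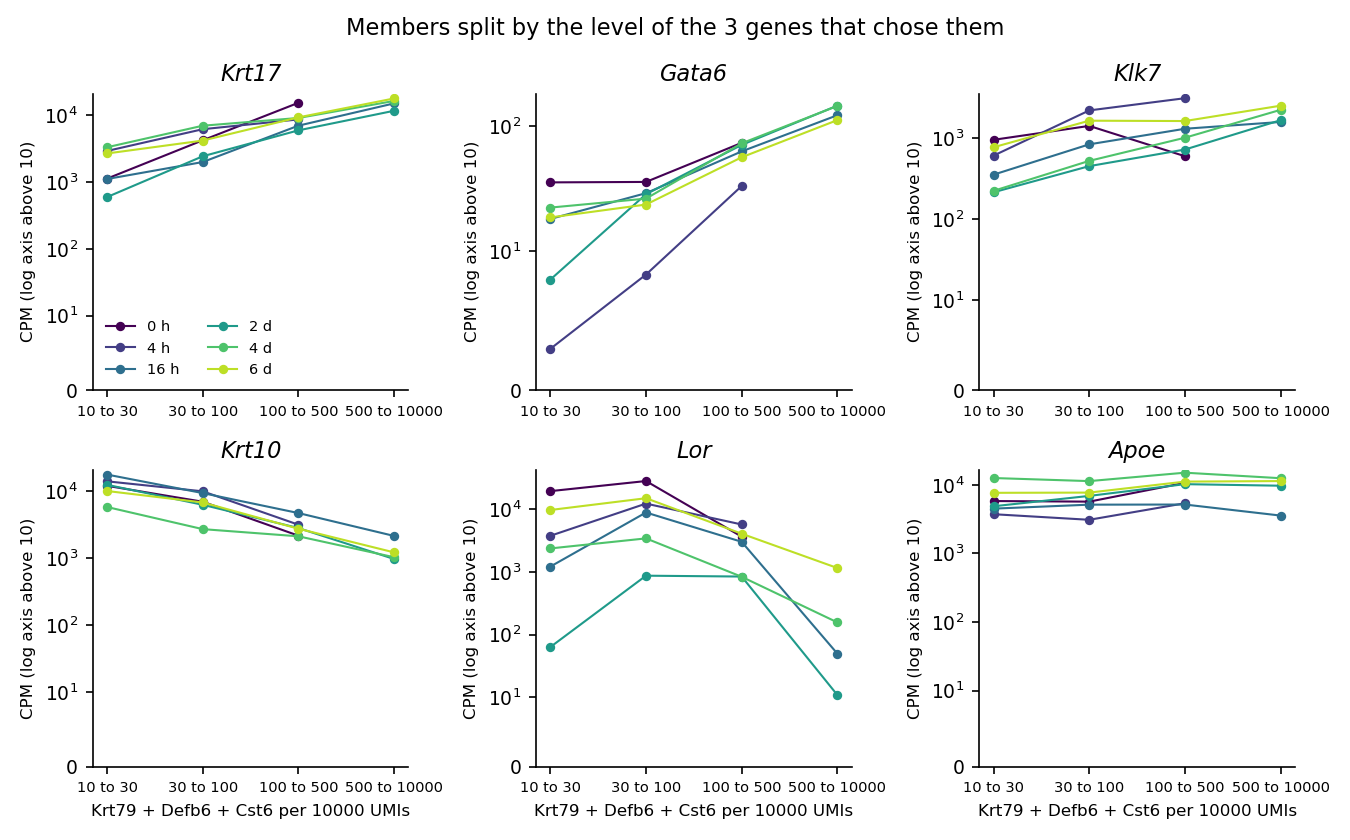
Levels (CPM, log axis) of follicle and epidermal genes in members grouped by UMIs of Krt79, Defb6 and Cst6 per 10000, for each time point with enough cells. At 4 d Krt17 runs from 3305 CPM in the lowest group to 16296 CPM in the highest and Krt10 from 5816 to 1036 CPM.

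The 3 genes of the rule had their own courses. Cst6 stood at 6107, 5077, 11261, 19426, 31181 and 25547 CPM, lowest at 4 h and highest at 4 d. Krt79 stood at 2739, 1334, 4076, 4115, 6977 and 4441 CPM, with the same extremes. Defb6 stood at 1147, 1229, 2696, 4782, 3475 and 3898 CPM, highest at 2 d. None of these is evidence of a change, since the genes chose the cells.

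Beyond the rule genes, libraries were set against 0 h by size, with no test. Genes with at least 50 CPM in either library were counted as past 2-fold. A gene under that level at 0 h enters only through the later library and then cannot count as lower. In the same way, a gene under it in the later library cannot count as higher. Higher by that measure were 17.5% of 3140 genes (4 h), 8.45% of 3005 (16 h), 4.31% of 2833 (2 d), 13.1% of 3149 (4 d) and 4.49% of 2760 (6 d). Lower were 8.95%, 8.25%, 12.4%, 12.6% and 5.47%, and 26.5%, 16.7%, 16.7%, 25.7% and 9.96% were past 2-fold in either direction. The genes past 2-fold were mostly higher at 4 h and mostly lower at 2 d. All 5 comparisons share the 0 h library. At 16 h, 50.6% of the genes past 2-fold were higher, and 34.1% after TMM scaling, and at 4 d 50.9% were higher and 31.7% after TMM scaling, so the split between higher and lower at those times depends on the scaling. The median log2 ratio of all genes was 0.28, 0.20, 0.03, 0.22 and 0.00. The Krt79-rich subset had 22.8%, 10.8%, 4.59%, 12.3% and 7.56% higher and 9.89%, 8.65%, 10.5%, 11.4% and 9.37% lower.

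The wound keratins Krt6b and Krt6a had the largest upward ratios at 4 h. Krt6a, a keratin that keratinocytes make on injury, stood at 28.0, 1568, 619, 134, 79.2 and 193 CPM, 56.0-fold higher at 4 h than at 0 h. Krt16, its partner keratin, stood at 287, 5098, 1494, 427, 55.2 and 415 CPM, 17.7-fold higher at 4 h. Both were highest at 4 h and above 0 h through 2 d. Krt6b had no UMI at 0 h and 1265 CPM (1236 to 1295) at 4 h, at least 2351-fold higher when 0 h is set at a floor of 3 UMIs in the library, and stood at 68.6, 16.9, 0.0434 and 2.70 CPM later. Krt6b was largely outside the Krt79-rich subset, which held 72.5 CPM at 4 h, while Krt6a stood there at 1870 CPM.

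The spinous comparator had 1996 CPM of Krt6a at 4 h against 5.18 CPM at 0 h. The T cells, which should lack the keratin, held 287 CPM of Krt6a and 525 CPM of Krt6b at 4 h. The level in all members was above that in T cells for both genes, but Krt6b in the Krt79-rich subset was below it. Of 14 wound keratins and alarmins, 10 had the required level at 4 h, of which 5 were at least 2-fold higher and 0 lower, with a median log2 ratio of 1.00 against 0.28 over all genes, of which 17.5% were higher and 8.95% lower. Genes under that level at 0 h, as Krt6a and Krt6b were, entered through the 4 h library alone and could not count as lower. At 4 d the same list had 1 of 8 higher and 6 lower, with a median of -1.50 against 0.22, while 13.1% of all genes were higher and 12.6% lower.

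The further genes with the largest ratios at 4 h were Sprr2i, a small proline-rich protein of the cornified envelope, Klk6, a trypsin-like kallikrein, and Cstdc5, a stefin-like cystatin gene. Klk6 stood at 5.92, 233, 75.5, 85.6, 68.2 and 112 CPM, and no library of the spinous comparator exceeded 0.449 CPM. Cstdc5 stood at 6.82, 205, 404, 158, 13.2 and 156 CPM. The first was highest at 4 h and the second at 16 h, with 4 d close to 0 h for Cstdc5 alone. Stfa3, another stefin that inhibits cysteine proteases, stood at 3.95, 10.3, 43.8, 188, 29.4 and 69.2 CPM, highest at 2 d. Ifi27l2a, an interferon-inducible gene, stood at 6.099, 7.58, 10.1, 77.3, 43.0 and 196 CPM, highest at 6 d. Both stood in the spinous comparator as well, with 303 CPM of Stfa3 at 2 d and 64.5 CPM of Ifi27l2a at 6 d. The stefin genes are close copies, so reads may be split among them.

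Several genes of the granular layer and late cornified envelope were lowest in members at 2 d, when Lor-rich cells were fewest. Lor stood at 18914, 6930, 3575, 424, 1645 and 8084 CPM. Lce1m, a late cornified envelope gene, stood at 9609, 2228, 2128, 20.8, 680 and 2952 CPM. Both were highest at 0 h and lowest at 2 d. In the Krt79-rich subset Lor stood at 268, 12.7, 54.1, 10.6, 119 and 1472 CPM and Lce1m at 66.5, 2.24, 3.10, 1.70, 3.03 and 266 CPM, so both were highest there at 6 d. T cells held 276, 277, 59.4, 31.9, 21.8 and 328 CPM of Lor, above the subset at 0 h, 4 h, 16 h and 2 d. Other late envelope genes were among the 5 lowest at 4 h, 2 d and 4 d, namely Lce1a1, Lce1a2, Lce1b, Lce1c, Lce1i and Lce1l, near copies of each other between which reads may be split.

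Of 12 granular markers, 10 had the required level in members. From 4 h to 6 d, 5, 7, 9, 8 and 3 of them were at least 2-fold lower, and 2 were higher at 6 d. Of all genes 8.95%, 8.25%, 12.4%, 12.6% and 5.47% were lower, and 4.49% were higher at 6 d. The median log2 ratio of the granular markers was -0.91, -1.50, -3.60, -2.86 and -0.32. In the Krt79-rich subset at 6 d, 9 of 9 granular markers with the required level were higher, with a median of 2.53 against 0.01 over all genes, of which 7.56% were higher. At 2 d 4 had that level in the subset, so some of the 9 reached it through the 6 d library alone and could not count as lower. The counts at 6 d thus differed between the members as a whole and the subset, and that difference was not tested.

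Flg encodes filaggrin, the matrix protein of the granular layer. It stood at 903, 196, 178, 35.0, 436 and 2413 CPM in members and at 52.0, 13.5, 4.65, 5.95, 344 and 1938 CPM in the subset. The subset at 6 d was 37.2-fold above 0 h. T cells held at most 36.2 CPM of Flg, at 6 d. Casp14, the caspase that processes filaggrin, stood at 7.43, 9.72, 34.3, 40.8, 103 and 420 CPM in the subset. Each value was above that of the time point before, and all members showed the same high end, with 320 CPM at 6 d against 27.1 CPM at 0 h.

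Among 20 cornified envelope genes, 8 of 16 were lower and 2 higher at 2 d in members, and 9 of 15 were lower and 1 higher at 4 d, while at 6 d 1 was lower and 1 higher, close to the 5.47% and 4.49% of all genes. All genes were lower for 12.4% at 2 d and 12.6% at 4 d. The Krt79-rich subset went otherwise, with 3 of 13 higher and 3 lower at 4 d and 6 of 14 higher and 0 lower at 6 d, where the median log2 ratio was 0.86 against -0.25 in all members. Of all genes in the subset 12.3% were higher and 11.4% lower at 4 d, and 7.56% higher and 9.37% lower at 6 d. Barrier lipid genes, which build the ceramide and acylglucosylceramide layer, were lower for 11 of 14 at 4 d and for 1 of 14 at 6 d, with medians of -1.53 and -0.45 against 0.22 and 0.00 over all genes, and the 6 d count was close to the share of all genes. In the Krt79-rich subset 1 of 6 barrier lipid genes was lower and 1 higher at 4 d, with a median of 0.21 against 0.22 over all genes. Krt10, at 7700, 10766, 10493, 6889, 2829 and 5523 CPM in members, and Krt1, at 855, 2269, 3307, 3011, 564 and 1099 CPM, were lowest at 4 d. Of 9 spinous markers with the required level, 5 were lower and 0 higher at 4 d, and in the subset 2 of 8 were lower and 0 higher, against 12.6% and 11.4% of all genes lower. The part of the mixture of cells in these counts was not tested.

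Among proteases of shedding, Klk8, Klk10 and Klk13 were highest at 4 d and 6 d. The kallikrein and serine protease list summed to 3989, 4359, 2419, 1954, 2740 and 4413 CPM in members, lowest at 2 d and about as high at 4 h as at 6 d, and to 1586, 2235, 1908, 2124, 2798 and 3791 CPM in the Krt79-rich subset, highest at 6 d. In members at 4 d, 2 of 10 genes were higher and 3 lower, against 13.1% and 12.6% of all genes. Klk8 encodes a trypsin-like kallikrein, and it stood at 218, 234, 189, 194, 391 and 590 CPM in members. Its level in the Krt79-rich subset was 14.5, 39.6, 93.6, 201, 403 and 510 CPM. The subset lay below members at 0 h, 4 h and 16 h and close to them at 2 d and 4 d. T cells held 139 to 224 CPM of Klk8, above the subset at 0 h, 4 h and 16 h.

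Klk13, a further kallikrein, stood at 1.08, 2.89, 2.08, 4.29, 49.0 and 63.6 CPM in members, 59.1-fold higher at 6 d. In the subset Klk13 had no UMI at 0 h and stood at 56.8 CPM at 4 d and 82.3 CPM at 6 d. Klk10 stood at 17.8, 52.3, 58.9, 98.9, 250 and 229 CPM in the subset. The 3 genes were higher at 4 d and 6 d than at every earlier time in the subset. Of 16 genes of the kallikrein and serine protease cascade, 5 of 11 with the required level were higher at 6 d and 0 lower in members, with a median of 0.55 against 0.00 over all genes, of which 4.49% were higher. In the subset 6 of 9 were higher and 0 lower at 6 d, with a median of 2.73, against 7.56% of all genes higher. Klk8, Klk10 and Klk13 in the subset, and Klk13 in members, were under that level at 0 h and could not count as lower. Spink5, which encodes the inhibitor LEKTI that holds these proteases in check, stood in the subset at 815, 670, 371, 459, 297 and 606 CPM, highest at 0 h.

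**Figure D5:**
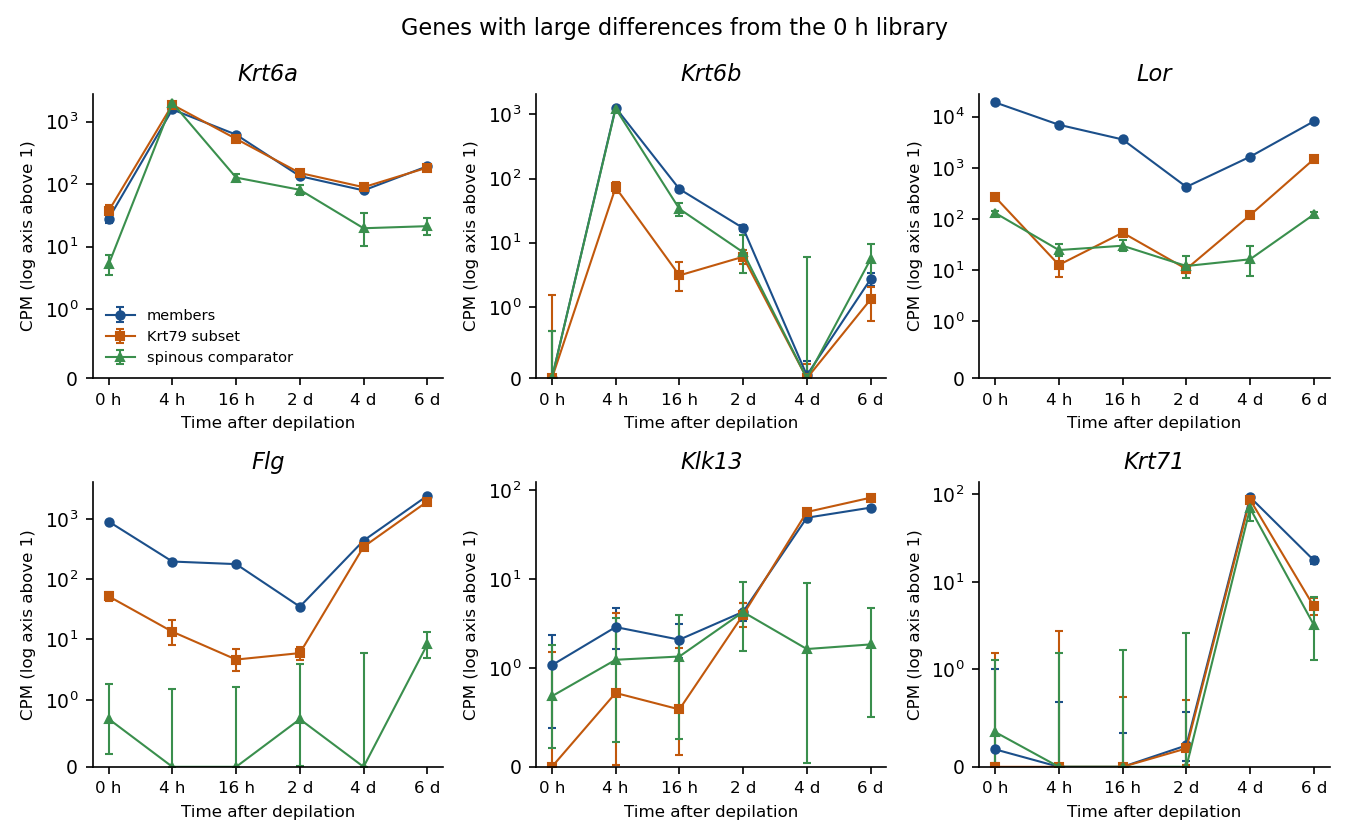
Levels (CPM, log axis) of genes named in the text in all Krt79/Defb6/Cst6 cells and in the Krt79-rich subset against time after hair removal, with exact 95% counting intervals. Krt6a is highest at 4 h with 1568 CPM in members, and Flg in the subset is highest at 6 d with 1938 CPM.

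Of the cystatin and cathepsin list, counted without Cst6, 3 of 10 genes were higher and 0 lower at 6 d, and 1 was higher and 4 lower at 2 d, while in the subset 5 of 9 were higher at 6 d and 2 of 8 at 2 d, with 0 lower at both. Of all genes 4.49% were higher and 5.47% lower at 6 d, and 4.31% and 12.4% at 2 d, and in the subset 7.56% were higher at 6 d and 4.59% at 2 d. Cstb, an intracellular inhibitor of cathepsins, stood at 721, 1082, 1132, 1249, 1685 and 1727 CPM, lowest at 0 h and highest at 6 d. In the antimicrobial list, counted without Defb6, few genes had the required level. At 4 h 2 of 5 were higher and 1 lower, against 17.5% and 8.95% of all genes. At 4 d 0 of 4 were higher and 4 lower, against 13.1% and 12.6% of all genes. In the subset at 4 d 1 gene had the required level and it did not pass 2-fold. Slpi, a secreted protease inhibitor with antimicrobial action, stood at 155, 701, 47.2, 8.19, 2.69 and 48.1 CPM. It was highest at 4 h and lowest at 4 d, and in the subset it stayed between 1.44 and 61.3 CPM.

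Cell cycle genes were higher at 4 d for 6 of 7 with the required level, and 0 were lower, against 13.1% of all genes higher. At 4 h and 6 d 1 gene had that level, so the rest reached it at 4 d through the 4 d library alone and could not count as lower. Mki67, a marker of cycling cells, stood at 8.25, 6.86, 46.3, 44.0, 83.5 and 44.8 CPM. Hist1h1b, a linker histone made in S phase, stood at 5.20, 8.66, 98.6, 28.9, 131 and 51.2 CPM. Both were low at 0 h and 4 h and highest at 4 d. Members with at least 2 UMIs of 10 cell cycle genes after thinning made up 13.2% (9.93 to 17.0), 4.88% (2.92 to 7.60), 15.8% (13.3 to 18.6), 17.7% (15.8 to 19.7), 19.4% (17.9 to 20.9) and 15.5% (14.1 to 17.1). Thinning left out 2, 6, 9, 29, 60 and 31 shallower members, and the share without thinning was 71.2%, 45.6%, 66.7%, 56.4%, 46.3% and 51.5%. The 4 h library was the lowest in both forms, and the highest was 4 d after thinning and 0 h without it. Basal comparator cells held 20.9%, 7.10%, 28.9%, 31.4%, 36.8% and 28.0% by the same measure, above the members each time. T cells held 26.1%, 39.7%, 26.97%, 38.1%, 45.5% and 55.8%, also above the members. Hmgb2, the most abundant of the 10 genes and one not limited to dividing cells, gave 249 of their summed 328 CPM in members at 0 h and 434 of 1049 CPM at 4 d. Without predicted doublets the members held 12.5%, 5.19%, 14.7%, 14.2%, 13.5% and 13.2%. The part of free RNA in these shares was not tested.

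Hair keratins appeared at 4 d. Krt71 encodes a keratin of the inner root sheath, the layer that moulds the growing hair, and stood at 0.179, 0, 0, 0.220, 92.2 and 17.6 CPM in members, with an interval of 88.3 to 96.2 at 4 d. Krt25, a partner keratin of that sheath, stood at 0, 0, 0.0947, 0, 114 and 20.8 CPM. Krt75, a keratin of the companion layer, stood at 1.08, 1.99, 2.94, 0.220, 89.7 and 55.3 CPM. These 3 genes were near 0 through 2 d and highest at 4 d. The spinous comparator held 68.7 CPM of Krt71 and 81.8 CPM of Krt25 at 4 d, but no UMI of Krt75. T cells held 3.38 CPM of Krt71 at 4 d and 25.6 CPM at 6 d, the latter above the members. Of 7 inner root sheath markers, 4 of 5 with the required level were higher at 4 d, against 13.1% of all genes. At the other times 1 had that level, so the rest reached it through the 4 d library alone and could not count as lower. That count is therefore a description only. Gata3, a marker of the list at 171 CPM at 0 h and 106 CPM at 4 d, is also a gene of other keratinocytes. The part of free RNA or of other follicle cells in the hair keratins was not tested.

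Immediate early genes, which cells switch on within minutes of handling or growth factor signals, were highest early. Of 14, the numbers at least 2-fold lower were 3, 4, 6, 4 and 8 from 4 h to 6 d, and 0 were higher at any time. Of all genes 8.95%, 8.25%, 12.4%, 12.6% and 5.47% were lower. Fos, a subunit of the AP-1 factor, stood at 3171, 2944, 2031, 1957, 2069 and 1345 CPM, and Atf3, a stress-induced factor, at 2542, 964, 1087, 963, 1186 and 1051 CPM. Counts in the Krt79-rich subset were 3, 5, 11, 9 and 12, against 9.89%, 8.65%, 10.5%, 11.4% and 9.37% of all genes. Klf2, a Krüppel-like factor, was the lowest gene by ratio at 6 d with 155, 35.0, 49.6, 29.9, 31.0 and 15.8 CPM.

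Mcl1, the anti-apoptotic BCL-2 family member on which the study centred, stood at 381 (365 to 398), 309, 235, 224, 163 and 176 (171 to 181) CPM in members. The 0 h library was the highest and the 4 d library the lowest. The subset gave 404, 340, 239, 208, 153 and 169 CPM, in the same order of time points. Of the BCL-2 family list, Mcl1 included, 4 of 16 genes had the required level at 4 d, of which 1 was higher and Mcl1 was the 1 lower, against 13.1% higher and 12.6% lower of all genes. The spline test over all libraries, given below, called 0 of the 14 genes of the list that it tested. The paper reports no significant change of any BCL-2 family gene during regeneration in its own analysis of these data. Sfn, a target of P53 and a gene of differentiating keratinocytes, stood at 5322, 10300, 4285, 3161, 2515 and 2489 CPM, highest at 4 h. Of 7 P53 targets with the required level, 2 were higher and 2 lower at 4 d, against 13.1% and 12.6% of all genes, with a median of -0.46 against 0.22. The 3 of 12 Notch genes with the required level did not pass 2-fold at any time.

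Glycolysis and hypoxia genes were higher for 3 of 7 (4 h), 3 of 7 (16 h), 1 of 7 (2 d), 4 of 8 (4 d) and 2 of 9 (6 d), against 17.5%, 8.45%, 4.31%, 13.1% and 4.49% of all genes, and 1 was lower at 16 h, with medians from 0.82 to 0.97. Ldha, lactate dehydrogenase A, stood at 176, 432, 343, 326, 305 and 278 CPM, lowest at 0 h. Within the upper follicle basal list, Sostdc1, an antagonist of BMP and WNT signals, stood at 170, 25.3, 162, 300, 389 and 268 CPM and Lrig1, a stem cell marker of the junctional zone, at 40.7, 20.03, 76.5, 75.3, 103 and 68.8 CPM. Both were lowest at 4 h and highest at 4 d. Plet1, a surface protein gene of the same list, stood at 505, 574, 282, 234, 264 and 339 CPM, highest at 4 h. Of the 7 genes of the list, 2 of 5 with the required level were higher and 0 lower at 4 d, against 13.1% and 12.6% of all genes. At both 4 h and 2 d 1 was higher and 1 lower. The shares of all genes were 17.5% and 8.95% at 4 h and 4.31% and 12.4% at 2 d.

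Markers of cells other than keratinocytes were low but not level. Melanocyte markers summed to 9.15, 8.30, 13.6, 24.3, 157 and 26.8 CPM, of which Dct, an enzyme of melanin synthesis, gave 51.3 CPM at 4 d and 0.189 CPM at 16 h. Langerhans cell markers summed to 193, 104, 216, 356, 156 and 237 CPM, with 90.8 CPM of Cd74, the most abundant, at 0 h. T cell markers summed to 210, 172, 226, 264, 227 and 147 CPM, with Trbc2, the most abundant, at 171 CPM at 0 h and 96.7 CPM at 4 d. The melanocyte sum was highest at 4 d, with the hair keratins, and its part in the 4 d values was not tested. Fibroblast markers summed to at most 22.5 CPM with Lum at 0 in all libraries, and endothelial markers to at most 0.652 CPM. Sebocyte markers outside the rule summed to 386 to 522 CPM, with Dgat2 between 52.3 and 211 CPM.

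Members were set against the comparators of the same library, as a description, since the rule and the gates chose all 3 sets. Of 1973 genes with the required level, 2.79% were at least 2-fold higher and 0.304% at least 2-fold lower than in spinous cells in all 6 libraries. Among the genes with the most steady excess were Lor, Crct1, Klk7, Calml3, Klk5, Cnfn, Flg2, Sdr16c6, Gsdma, Fst and Krt17. The log2 ratio of Klk7 ran from 4.03 to 7.73 and that of Krt17 from 3.004 to 6.70. The set thus held granular genes, proteases and a follicle keratin together. The genes lower than in spinous cells in all libraries were Clca3a2, Mt4, Hpgds, Ext1, Mt2 and Clca2. Hpgds, a prostaglandin D synthase, stood at 24.0, 90.6, 53.5, 42.4, 9.43 and 20.4 CPM in members against 114 to 241 CPM in spinous cells.

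Against basal cells, 5.27% of 2049 genes were higher and 3.32% lower in all 6 libraries. The most steady excess was in Ly6g6c, Klk7, Krt77, Spink5, Lor and Alox12e, with log2 ratios of 6.02 to 6.57 for Ly6g6c and 4.50 to 4.77 for Alox12e. Genes that stood lowest included Igfbp3, an IGF binding protein, Sparc, a matrix protein, Itga3, an integrin subunit, and Col17a1, a collagen of the hemidesmosome. Igfbp3 had log2 ratios of -2.85 to -2.47 and Col17a1 of -2.61 to -2.00.

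Change over time was tested in edgeR (quasi-likelihood F) across the 6 libraries by a spline of hours with 3 degrees of freedom, which left 2 residual degrees of freedom. Of 12916 genes tested in members, 1 was called (0.00774%), and 909 had an unadjusted p under 0.05. With 1 library left out each, the number called was 132 to 389, in fits with 1 residual degree of freedom. The gene called with all libraries was Krt71, at chr15:101733949-101743109 on the minus strand, with an adjusted p of 0.0197. It rose toward 4 d, the time at which its level came from 2122 UMIs against 4 or fewer in each earlier library, and without the 4 d or the 6 d library it has no value. Without predicted doublets 0 genes were called and 859 had an unadjusted p under 0.05, so the call of Krt71 ended there (adjusted p 0.106), with a linear log2 change of 13.9 against 12.7. The linear term alone in place of the spline also ended it (adjusted p 0.539), while DESeq2's likelihood ratio test called 342 genes. On log2(hours + 1) in place of hours, 5 genes (0.0387%) were called, namely Krt71, Gng13, Krt35, Lce3d and Timp1. In the Krt79-rich subset the spline of hours called 0 of 11896 genes, with 657 at an unadjusted p under 0.05, and that of log2(hours + 1) called 68 (0.572%), among them Flg, Klk8, Klk13, Klk10, Klk11 and Casp14. The wound keratins, the granular genes and the rule genes were not called in members by the spline of hours, and with so few residual degrees of freedom a missed threshold does not show that a level stayed the same.

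Whether the course of members differed from that of spinous cells was tested with the interaction of cell set and spline, with the library as a block. Of 11778 genes, 114 were called (0.968%), of which 28 had a linear difference above 0, meaning a course more upward in members, and 86 below it. On log2(hours + 1), 266 genes (2.26%) were called. Krt15, a keratin of basal cells, had a linear log2 difference of 1.98, with 1790, 317, 1104, 1261, 2460 and 1465 CPM in members against 3274, 744, 1654, 919, 1058 and 856 CPM in spinous cells. It was lower than in spinous cells through 16 h and higher from 2 d on. Ucp2, a mitochondrial carrier, had a difference of 1.96, with 66.6, 71.8, 172, 368, 523 and 365 CPM against 120, 125, 231, 232, 237 and 170 CPM. It crossed in the same way between 16 h and 2 d. Il18, an interleukin kept ready in keratinocytes, had a difference of -0.72, with 470, 172, 138, 30.5, 73.2 and 259 CPM against 5.72 to 14.9 CPM, and stood at 11.6 CPM in the subset at 0 h. Its linear difference was 0.74 without the 0 h library and 2.32 in the subset, the opposite direction. By list, the genes called with a difference below 0 were 4 of 10 spinous markers, 2 of 12 granular markers and 3 of 19 cornified envelope genes. Above 0, 1 cornified envelope gene was called. Of all 11778 genes, 86 were called below and 28 above. Melanocyte markers had 2 of 5 below, and the cystatin and cathepsin list had 2 of 13. Each other list with a call had 1 above, 1 below or 1 of each. With the 16 h, 2 d, 4 d or 6 d library left out, edgeR called 0 genes (465 to 790 at an unadjusted p under 0.05), in fits with 1 residual degree of freedom, while 396 were called without 0 h and 419 without 4 h. The linear differences of Krt15 (1.66 to 2.19) and Ucp2 (1.78 to 1.98) without the later libraries stayed close to those with all libraries.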

How the data were processed

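The authors deposited UMI counts per gene and barcode for each library, made with Cell Ranger 6.1.2 on mm10 per the labels, as filtered matrices of 32285 genes; these raw counts are not normalized. Library totals and the limits on barcodes are given with the results. Members were chosen by UMIs of Krt79, Defb6 and Cst6, and the members and gene lists were chosen with earlier results of these data known. UMIs were summed over members per library and given as CPM of that sum with exact Poisson intervals, and shares with exact Clopper-Pearson intervals. A 2-fold rule at 50 CPM, with no test, stands for the comparison of single libraries. Tests used edgeR 4.0.16 (R 4.3.3, limma 3.58.1) with TMM, filterByExpr and robust quasi-likelihood fits, and Benjamini-Hochberg adjustment at 0.05 over all genes; DESeq2 1.42.0 was an alternative. Doublets were marked per library as the highest Scrublet scores (scanpy 1.11.5), up to 0.8% per 1000 deposited barcodes, and kept in the main counts. Named genes were the rule genes and markers, for each later library the 5 with the largest and the 5 with the smallest log2(CPM + 5) ratio to 0 h, list members, the 10 genes of lowest p, and the 12 genes highest and lowest against each comparator in all libraries; 1 gene that the rule names is not reported here. The Krt79-rich subset and the gates on Lor, Krt1 and Krt10 were chosen after the data were seen. Intervals cover counting error only, and the 2 mice of a library were pooled, so p-values measure the spread of 6 libraries around a curve. Scripts were tested on simulated data.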

Additional observations from a re-analysis of the deposited data

Results flagged for a closer look

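The courses of 114 genes differed between Krt79/Defb6/Cst6 cells and spinous cells by the interaction test, which is a test of the difference itself. The 10 of lowest p, with the linear log2 difference (members minus spinous cells), were Il18 at -0.72, Cpe at -0.14, Elmod1 at -1.75, Dpysl3 at -3.40, Cysrt1 at -1.64, Dct at -7.45, Hist1h2ae at 0.95, Krt15 at 1.98, Kctd4 at -0.82 and Ucp2 at 1.96. By edgeR the call of Dpysl3 ended on log2(hours + 1) (adjusted p 0.372) and that of Elmod1 with Krt79 alone (adjusted p 0.0756). With a linear trend in place of the spline Dct alone of the 10 was called (adjusted p 0.0264), and 0 of the 10 were called without the 16 h, 2 d, 4 d or 6 d library. With Krt79 alone the calls of Cysrt1, Cpe, Il18 and Kctd4 ended too. The linear term is 1 of the 3 of the spline, so a gene with a bent course, such as Cpe, can be called with a small value. Cpe, carboxypeptidase E, stood at 86.3, 35.9, 52.4, 55.3, 88.6 and 105 CPM in members and at 4.47, 4.13, 30.1, 37.7, 16.4 and 15.2 CPM in spinous cells. Dct, the melanocyte enzyme, stood at 1.79, 1.08, 0.189, 5.88, 51.3 and 6.48 CPM in members against 0.179, 0.413, 0, 0.711, 31.1 and 41.5 CPM in spinous cells. Its call rests on few UMIs before 4 d, and without predicted doublets its difference was -1.17 with an adjusted p of 0.796 by edgeR, so the call ended, while without the 6 d library it was -2.41.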

How the results depend on the processing

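No paired analysis of time points was possible because each is 1 library of pooled mice. The comparison with spinous cells has the library as a block in all its fits. From 0 h to 6 d, the share of members was 4.25%, 3.38%, 7.18%, 12.4%, 19.3% and 19.1% with limits doubled, 7.62%, 7.52%, 14.6%, 25.5%, 30.3% and 33.1% with limits halved, and 3.18%, 1.92%, 5.13%, 10.8%, 19.2% and 15.8% with Krt79 alone, a setting added after the data were seen; without predicted doublets it was 15.2%, 21.0% and 22.2% from 2 d to 6 d. The cycling share was 71.2%, 45.6%, 66.7%, 56.4%, 46.3% and 51.5% without thinning and 41.1%, 26.8%, 44.3%, 42.9%, 42.2% and 38.0% at 1 UMI. With Krt79 alone it was 2.78%, 13.0%, 14.9%, 17.2% and 12.9% from 4 h on, and without predicted doublets it was 14.2%, 13.5% and 13.2% from 2 d on. At 20 CPM, where more genes are counted by construction, genes past 2-fold numbered 1488, 932, 790, 1527 and 487 from 4 h to 6 d. At 50 CPM they numbered 831, 502, 474, 809 and 275, and with Krt79 alone 479 at 6 d. The time course called 5 genes on log2(hours + 1), 0 on the rank of time (1519 at an unadjusted p under 0.05), 80 with no filter, 342 with DESeq2, 0 with limits doubled (967), 0 without predicted doublets (859), 0 with equal numbers of members (601), 0 with Krt79 alone (657) and 68 with Krt79 alone on log2(hours + 1). Leaving out 1 library each gave 132 to 389 calls, with 1 residual degree of freedom. The difference from spinous cells called 266 genes on log2(hours + 1), 3 with a linear trend, 45 with Krt79 alone and 0 to 419 with 1 library left out each. The linear difference took the other sign with Krt79 alone for Cysrt1 (0.26), Cpe (2.06), Il18 (2.32) and Kctd4 (1.51). With 1 library left out each it ran from -1.67 to 1.22 for Cpe, turning without 0 h or 4 h (0.18), from -4.02 to 0.74 for Il18 and from -1.36 to 2.76 for Hist1h2ae, both turning without 0 h, and from -4.23 to 0.66 for Kctd4, turning without 0 h or 4 d (0.13). Between 6 d and 0 h, the log2 ratio with Krt79 alone was 0.20 for Ifitm6, 0.54 for Krtap3-2 and 1.48 for Btc, which stood lower at 6 d in all members. Of the 50 ratios of named genes, 50 kept their direction and stayed past 2-fold under TMM scaling, under doubled limits and without predicted doublets, and 33 did with Krt79 alone. The causes were not tested.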
